A study of Mus musculus with 21 samples.

Results

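Immediate early response genes were described in the gastrocnemius of female mice after treadmill training, after training was stopped, and without training. The 10 genes, Fos, Fosb, Jun, Junb, Egr1, Atf3, Nr4a1, Nr4a3, Ier2 and Btg2, were taken by symbol from a table of 40853 genes, and all 10 passed the filter on low counts that left 16129 genes for testing. Each library was made from poly(A)-selected RNA of the medial gastrocnemius belly of 1 C57BL/6NJ mouse, and each group held 7 mice. Mice entered the study at 10 weeks of age. The Inactive group lived in standard cages and did not train. The Active group ran on a treadmill 5 days a week for 6 weeks. Sessions lasted up to 40 min in total, with a slower warm-up before the part at about 70% of maximal speed. The Activity Reduction group trained in the same way for 4 weeks and was then inactive for 2 weeks. In all 3 groups a last maximal running test came 48 to 72 h before tissue collection. The mice were then fasted for some hours and anesthetized with isoflurane. Blood was drawn from the retroorbital sinus and a vaginal lavage was taken. The mice were killed by cervical dislocation before the hindlimb muscles were freeze clamped. Every sample was therefore taken days, and not minutes, after the last running test.

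Immediate early genes are transcribed within minutes of a stimulus without the need for new protein synthesis, and most of their messenger RNAs are short-lived. In resting cells their promoters are held ready by factors such as serum response factor and CREB, which kinases of the MAPK and calcium pathways activate. In muscle, contraction, stretch, injury and stress hormones are known stimuli. Fos, Fosb, Jun and Junb encode subunits of AP-1, a dimer of basic leucine zipper proteins. Egr1 encodes a zinc finger transcription factor, Atf3 a leucine zipper protein of the stress response, and Nr4a1 and Nr4a3 orphan nuclear receptors that muscle is known to induce after exercise. Ier2 encodes a small nuclear protein, and Btg2 an antiproliferative protein that recruits the machinery that removes poly(A) tails.

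The libraries differed in depth and in their content of liver transcripts. Total counts on genes ranged from 38482455 to 59785132 per library. Transcripts of 24 liver genes divided the libraries into 8 with more and 13 with fewer, so results are also given within the 13. Those with more were Active replicates 1 to 5, Activity Reduction replicates 1 and 2 and Inactive replicate 1. These 8 libraries came first in order of sample number, and the 13 followed. The 8 held 5 Active, 2 Activity Reduction and 1 Inactive library. The division was therefore tied to both sample order and group, and its source was not tested. Markers of the muscle fibre were abundant in all libraries, with the exception of Mylpf, which encodes a fast myosin light chain and had at most 179 counts. The neutrophil marker Ly6g had a count of 0 in all 21 libraries, and summed neutrophil markers reached at most 1.29 CPM (counts scaled to library totals). The muscle was homogenized whole, so fewer cells that express a gene and less RNA per cell cannot be told apart.

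Promoter sequences are shown first because several of these genes are known to be switched on through cAMP response elements. RefSeq's table (GRCm38.p6) held a promoter for 8 of the 10 genes, all but Egr1 and Ier2, and the 250 bases upstream of each start matched 1 place in GRCm39. Those of Fos (chr12:85520414-85520663, plus strand), Fosb (chr7:19043971-19044220, minus strand), Btg2 (chr1:134006894-134007143, minus strand), Nr4a1 (chr15:101164477-101164726, plus strand) and Jun (chr4:94940460-94940709, minus strand) are printed on the strand of the gene. For Atf3, Btg2 and Nr4a1 the window lies inside the gene span given below, so its start is not the outermost annotated one. Fos and Fosb are shown for their spread between mice, and Btg2 for a complete cAMP response element. Nr4a1 is shown for its 4 copies of TGACG, and Jun because it held no exact TGACG on either strand. Capitals mark TGACG or its reverse complement CGTCA, the core of the cAMP response element that CREB and ATF proteins bind, GCGNGGGCG or its reverse complement, the EGR motif, and TATAAA.
Fos: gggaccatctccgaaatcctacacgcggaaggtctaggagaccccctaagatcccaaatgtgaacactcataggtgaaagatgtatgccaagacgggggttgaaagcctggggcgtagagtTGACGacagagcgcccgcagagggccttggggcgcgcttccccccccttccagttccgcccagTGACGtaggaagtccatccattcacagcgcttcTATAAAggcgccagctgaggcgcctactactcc
Fosb: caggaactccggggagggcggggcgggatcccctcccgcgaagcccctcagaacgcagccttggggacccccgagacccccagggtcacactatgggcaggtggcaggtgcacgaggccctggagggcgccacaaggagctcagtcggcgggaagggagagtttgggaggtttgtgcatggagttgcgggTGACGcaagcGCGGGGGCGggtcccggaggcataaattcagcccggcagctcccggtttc
Btg2: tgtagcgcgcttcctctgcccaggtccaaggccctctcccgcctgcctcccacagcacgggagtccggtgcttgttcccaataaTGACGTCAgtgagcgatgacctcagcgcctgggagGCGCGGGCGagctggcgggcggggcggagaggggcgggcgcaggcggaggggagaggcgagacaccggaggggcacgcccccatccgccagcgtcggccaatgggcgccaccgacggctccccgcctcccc
Nr4a1: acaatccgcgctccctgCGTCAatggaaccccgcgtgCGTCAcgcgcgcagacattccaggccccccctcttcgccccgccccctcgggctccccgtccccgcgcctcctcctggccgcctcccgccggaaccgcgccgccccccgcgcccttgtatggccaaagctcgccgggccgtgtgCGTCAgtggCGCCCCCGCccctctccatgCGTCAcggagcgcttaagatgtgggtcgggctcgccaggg
Jun: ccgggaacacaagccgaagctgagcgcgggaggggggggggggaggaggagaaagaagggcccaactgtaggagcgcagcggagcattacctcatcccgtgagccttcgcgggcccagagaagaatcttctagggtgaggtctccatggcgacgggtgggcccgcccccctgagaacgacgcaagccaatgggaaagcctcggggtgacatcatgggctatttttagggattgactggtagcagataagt

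TGACG, on either strand, was present in 7 of the 8 promoters, all but that of Jun, and in 17.8% of the 32851 promoters of the table. In Fos it began 129 and 66 bases before the start, in Fosb 60 bases before it and in Junb 106 bases before it. The promoter of Nr4a3 also held 4 copies. The complete palindrome TGACGTCA, which contains TGACG, was in Btg2 alone among the 8 and in 1.55% of all promoters. GCGNGGGCG was in Btg2, Fosb and Nr4a1 and in 4.70% of all promoters. TATAAA began 33 bases before the start of Fos and was in none of the other 7, against 12.4% of all promoters. The AP-1 motif TGANTCA was in 0 of the 8 windows and in 6.75% of all promoters, and the CArG box of serum response factor was in 0 of the 8 and in 1.47%. Only exact matches were counted, so near matches such as tgacatca in the window of Jun were left out. These matches describe letters in a window of 250 bases and say nothing of binding or of sites farther upstream. Egr1 and Ier2 could not be searched.

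The genes differed widely in level. Scaled to exon length and library total (RPKM, with exon lengths of GENCODE vM39), the median over the 21 mice was 27.8 for Jun and 16.2 for Nr4a1. Exon length was the union over all annotated transcripts, and the order of the genes depends on it. It was 3189 bases for Jun, 10903 for Nr4a1, 6261 for Btg2 and 6243 for Fosb. In raw counts per library, Nr4a1 had 6473 to 12398 and Jun 3186 to 6897. Junb at 2.76, Ier2 at 2.29 and Btg2 at 2.12 formed a middle range in which the ranges over mice overlapped. Nr4a3 at 1.18, Atf3 at 0.92, Fos at 0.83 and Egr1 at 0.65 were lower, again with overlapping ranges, and Fosb was lowest at 0.040. Fosb had between 2 and 113 raw counts per library, so its differences carry large counting error. Exons of Jun share 16.6% of their length with the noncoding gene Junos on the opposite strand, those of Btg2 share 14.3% with Gm31974 and those of Junb share 7.27% with Prdx2. Whether reads were counted by strand is not given in the sources used here, so counts of these 3 genes are uncertain over those stretches.

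No member was called in any comparison. A call required an adjusted p-value under 0.05 and a log2 fold change over 0.25 in either direction (edgeR's quasi-likelihood test, Benjamini-Hochberg adjustment over all genes tested). Of the 16129 genes, 0% were called between the Active and Inactive groups, 0.0124% (2 genes, higher) between the Activity Reduction and Inactive groups, and 0% between the Activity Reduction and Active groups. By the same thresholds DESeq2 called 52, 21 and 113 genes in these comparisons, again with 0 members among them, but it gave no adjusted p-value for Fosb in any comparison, nor for Fos, Egr1, Atf3 and Ier2 in Activity Reduction against Inactive. At an unadjusted p-value under 0.05, 0 of 10 members differed between the Active and Inactive groups, where 10.9% of all genes did (6.18% higher and 4.69% lower). Between the Activity Reduction and Inactive groups 3 of 10 were higher, Fos, Fosb and Jun, and 0 were lower, where 7.73% of all genes differed, 4.19% higher and 3.54% lower. Without Activity Reduction replicate 3, the mouse with the highest Fos count, Jun alone was higher there at this level and Nr4a3 alone was lower. With all mice, Fos was the only member at this level between the Activity Reduction and Active groups, where 13.3% of all genes differed, 6.89% higher and 6.44% lower, and without that mouse Egr1, which was lower, was the only one. The median log2 fold change of the members was 0.11, 0.22 and 0.10 in these comparisons, and that of all genes was 0.01, 0.01 and -0.00. Without Activity Reduction replicate 3 the medians of the members were 0.11, -0.05 and -0.12. The Activity Reduction comparisons share the same 7 mice, and each group serves in a pair of comparisons. In each comparison the values of each member overlapped between the groups. The share of all genes without overlap was 0.254%, 0.118% and 0.291%.

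**Figure D1:**
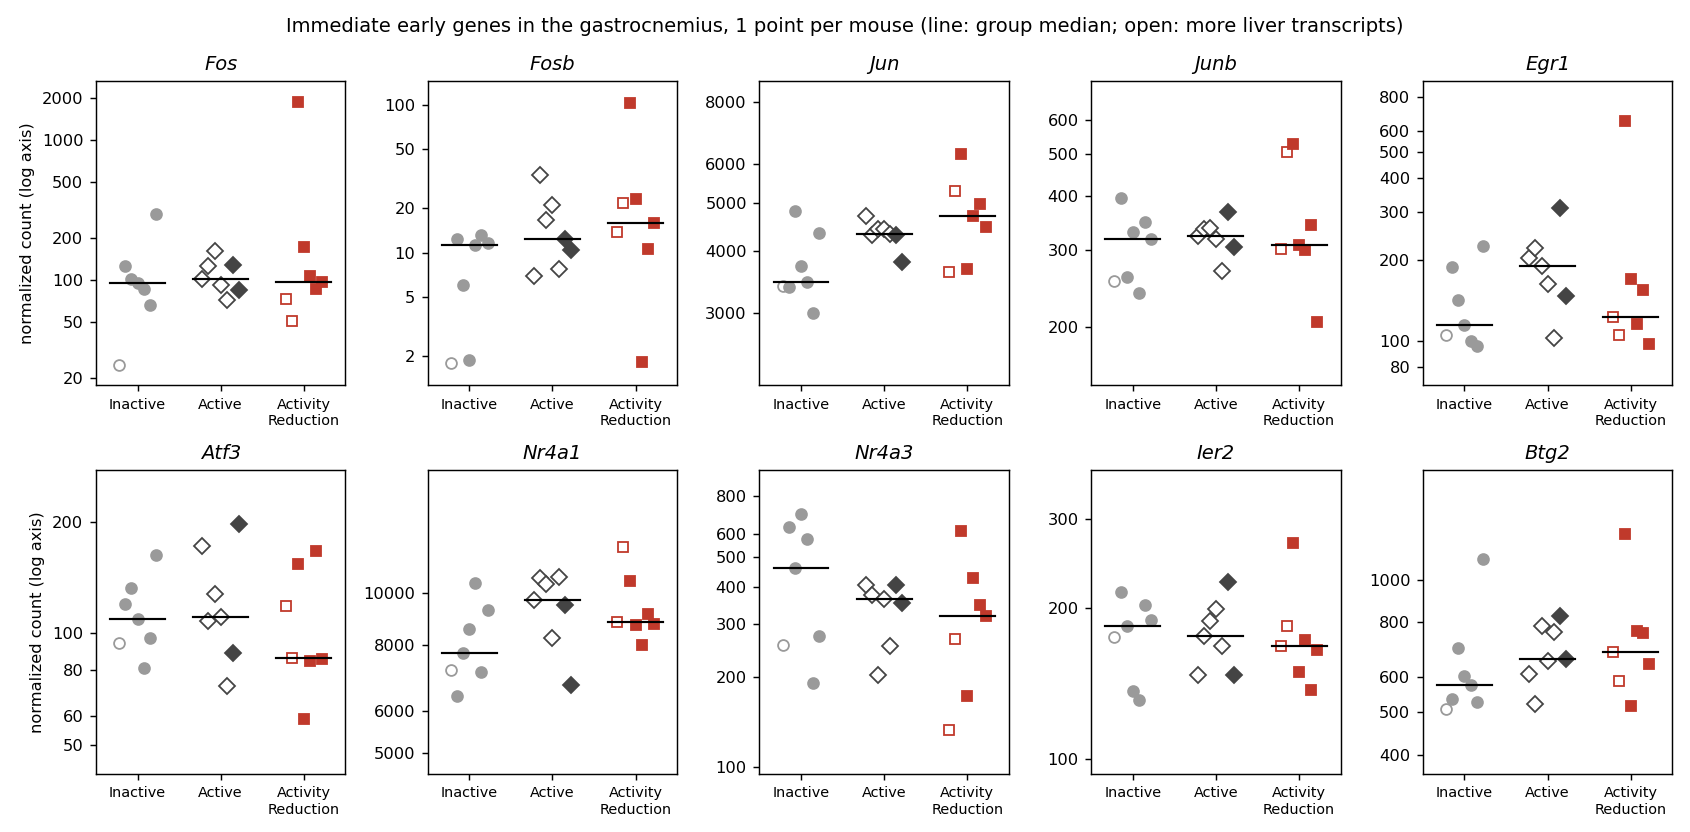
Normalized counts (log axes, counts divided by the library's size factor) of the 10 genes in each mouse, by group, with the group median as a line and open symbols for the 8 libraries with more liver transcripts. The groups overlap for every gene, and 1 Activity Reduction mouse lies above all others for Fos (1873), Fosb (103) and Egr1 (654).

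Fos, the AP-1 subunit that dimerizes with Jun proteins, lies on chromosome 12 from 85520658 to 85524047. It had a median of 94.6 normalized counts in the Inactive group (range 25.0 to 295), 102 in the Active group (72.2 to 161) and 97.2 in the Activity Reduction group (51.3 to 1873). The medians were thus close, and the highest value came from Activity Reduction replicate 3, with 171 the next highest in that group. The log2 fold change was 1.63 against the Inactive group (standard error 0.68, adjusted p = 0.578) and 1.68 against the Active group (standard error 0.685, adjusted p = 0.298). Without that mouse it was -0.22 and -0.17. The exact permutation test of mean log2 values (two-sided, 7 mice against 7, smallest possible p = 0.000583) gave p = 0.497 for Activity Reduction against Inactive. DESeq2 by default replaced the count of 2054 in that mouse by 109 as an outlier, and its log2 fold changes were then -0.22 and -0.16. Between the Active and Inactive groups the log2 fold change was -0.05 (standard error 0.687).

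Fosb, another Fos family subunit, lies on chromosome 7 from 19036621 to 19043976. Its median was 11.2 normalized counts in the Inactive group (1.78 to 13.2), 12.4 in the Active group (6.90 to 33.3) and 15.9 in the Activity Reduction group (1.83 to 103). In the Activity Reduction group 5 of 7 mice lay above every Inactive mouse, and the remaining 2 fell within the Inactive range. The log2 fold change was 1.70 against the Inactive group (standard error 0.603, adjusted p = 0.484), and 0.79 without Activity Reduction replicate 3. The exact permutation test gave p = 0.118. Against the Active group it was 0.83 (standard error 0.582), and -0.09 without that mouse. For Active against Inactive it was 0.88 (standard error 0.621, adjusted p = 0.626).

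Jun, on chromosome 4 from 94937271 to 94940459, encodes the partner of the Fos proteins in AP-1. It had a median of 3472 normalized counts in the Inactive group (3006 to 4809), 4327 in the Active group (3794 to 4699) and 4703 in the Activity Reduction group (3625 to 6289). All 7 Active and all 7 Activity Reduction mice lay above the Inactive median, although each group overlapped the Inactive range. Relative to Inactive mice, the log2 fold change was 0.34 for Activity Reduction (standard error 0.108, adjusted p = 0.444) and 0.22 for Active (standard error 0.108, adjusted p = 0.466). Without Activity Reduction replicate 3 the first was 0.25. The exact permutation test gave unadjusted p = 0.0338 and p = 0.0390, the only 2 of 30 such tests under 0.05. In the 13 libraries with fewer liver transcripts p was 0.0628 for Activity Reduction against Inactive, and 0.571 for Active against Inactive with 2 Active mice left. Without Activity Reduction replicate 3 the exact permutation p for Activity Reduction against Inactive was 0.0734. Activity Reduction and Active differed by 0.12 on the log2 scale (95% interval -0.10 to 0.35).

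Junb, which encodes a Jun protein that can restrain c-Jun, lies on chromosome 8 from 85701113 to 85705359. Its medians were 318.4, 324 and 308.4 normalized counts in the Inactive, Active and Activity Reduction groups, with ranges of 240 to 396, 269 to 369 and 205 to 527. The Activity Reduction group held both the lowest and the highest mouse. The log2 fold changes lay between 0.08 and 0.22 with standard errors of 0.161, and the smallest adjusted p-value was 0.738.

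**Figure D2:**
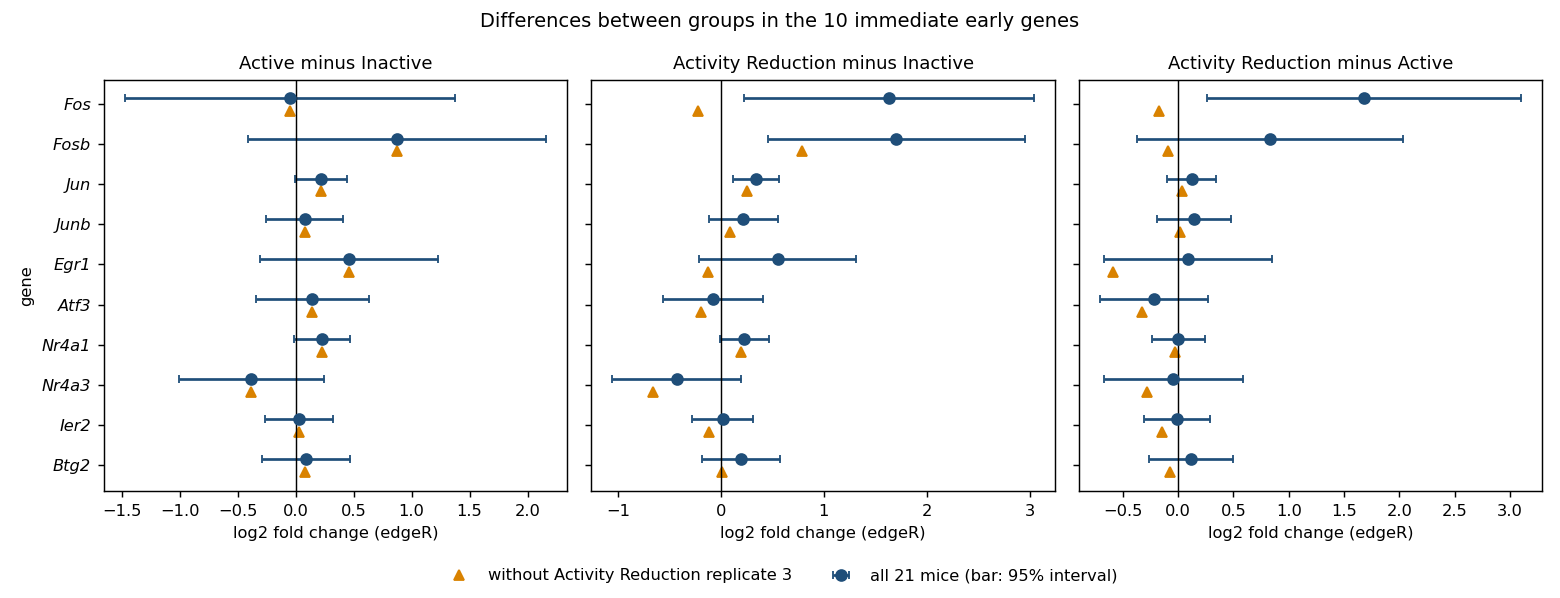
Log2 fold change of each gene in the 3 comparisons from edgeR with all 21 mice (circles, bars for 95% intervals) and without Activity Reduction replicate 3 (triangles). Fos against the Inactive group moves from 1.63 to -0.22, and Jun from 0.34 to 0.25.

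Egr1 lies on chromosome 18 from 34992876 to 34998049. Its median was 114 normalized counts in the Inactive group (96.2 to 225), 190 in the Active group (102 to 311.02) and 122 in the Activity Reduction group (97.2 to 654). In the Active group 6 of 7 mice lay above the Inactive median, whereas in the Activity Reduction group only replicate 3 lay above the Active range. The log2 fold change was 0.46 for Active against Inactive (standard error 0.37, adjusted p = 0.684), 0.55 for Activity Reduction against Inactive (standard error 0.368, adjusted p = 0.789) and 0.09 for Activity Reduction against Active (standard error 0.367, adjusted p = 0.945). Without Activity Reduction replicate 3 the last was -0.59 (adjusted p = 0.282), with an unadjusted exact permutation p of 0.0472 for 6 mice against 7, and the difference from Inactive was -0.13. With all mice, the difference in mean log2 normalized count between Activity Reduction and Active was -0.19 (exact permutation p = 0.674), of opposite sign to the fold change from edgeR.

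Atf3, on chromosome 1 from 190902493 to 190950241, had medians of 109.6, 111 and 85.8 normalized counts in the Inactive, Active and Activity Reduction groups. The ranges were 80.5 to 163, 72.2 to 197 and 58.7 to 166, and its highest mouse was Active replicate 7. The 3 log2 fold changes lay between -0.22 and 0.14 with standard errors near 0.236, and the smallest adjusted p-value was 0.721.

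The nuclear receptors had log2 fold changes of opposite sign against Inactive, none past the threshold. Nr4a1, on chromosome 15 from 101151980 to 101172681, had medians of 7721 normalized counts in the Inactive group (6386 to 10461), 9705 in the Active group (6710 to 10738) and 8818 in the Activity Reduction group (8002 to 12231). All 7 Activity Reduction mice and 6 of 7 Active mice lay above the Inactive median. Both log2 fold changes against Inactive were 0.23 (standard errors 0.115, adjusted p = 0.479 for Active and 0.672 for Activity Reduction). Nr4a3, on chromosome 4 from 48045153 to 48086447, had medians of 463 in the Inactive group (191 to 700.4), 363 in the Active group (204 to 406) and 319.3 in the Activity Reduction group (133 to 615). None of the 7 Active mice and 1 of the 7 Activity Reduction mice lay above the Inactive median. Its log2 fold change was -0.38 for Active and -0.43 for Activity Reduction against Inactive (standard errors 0.303 and 0.302, adjusted p = 0.677 and 0.809), and the latter was -0.66 without Activity Reduction replicate 3.

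Ier2, on chromosome 8 from 85387960 to 85389483, had medians of 184, 176 and 168 normalized counts in the Inactive, Active and Activity Reduction groups, with ranges of 131 to 215, 147 to 225 and 137 to 268. Its log2 fold changes were 0.03, 0.02 and -0.01, and the 95% interval of Activity Reduction against Inactive ran from -0.28 to 0.31. Btg2, on chromosome 1 from 134002908 to 134015033, had medians of 577, 661 and 684, with ranges of 507 to 1114, 523 to 828 and 516 to 1270. In both trained groups 6 of 7 mice lay above the Inactive median of Btg2. The log2 fold change was 0.08 for Active and 0.20 for Activity Reduction against Inactive (standard errors 0.183, adjusted p = 0.906 and 0.863), and the latter was 0.01 without Activity Reduction replicate 3.

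One mouse held the highest value of 7 of the 10 genes. It was Activity Reduction replicate 3, which held the highest value of 4.33% of all genes tested. Fos was 19.5 times the median of the other 20 mice there, the largest ratio of the 16129 genes on the log2(normalized count + 1) scale. Fosb was 8.64 times that median, at rank 3 in the same order, and Egr1 was 4.54 times that median, at rank 15. The ratios of the other members were smaller, with 1.96 for Btg2, 1.76 for Nr4a3, 1.65 for Junb, 1.54 for Ier2, 1.46 for Jun, 1.42 for Atf3 and 1.204 for Nr4a1. At least a 2-fold ratio was seen in 3 of 10 members and in 1.26% of all genes. The members were known to stand out in this mouse before these ratios were computed, so the ratios are a description.

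Of 38 other immediate early genes listed, 35 were tested, and 0 of the 35 reached a 2-fold ratio in Activity Reduction replicate 3. Their highest log2 ratio was 0.76, in Arc, a cytoskeletal gene named here after its value was seen, and 2 of the 35 were highest in that mouse. Macrophage markers summed to 66.9 CPM in this library, within the 21.03 to 71.1 CPM of the other 20 but above their median of 40.7 CPM. The median of the Activity Reduction group was 32.9 CPM, and only Inactive replicate 2 (71.1) and Active replicate 7 (68.5) had more. Summed liver markers were lowest of all in Activity Reduction replicate 3, at 177 CPM against 227 to 2398 CPM, and total counts were 55773226. Markers of fibres, endothelium, red blood cells, smooth muscle, satellite cells and fibro-adipogenic progenitors lay within the range of the other mice. The part of these values in the high Fos, Fosb and Egr1 counts was not tested.

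**Figure D3:**
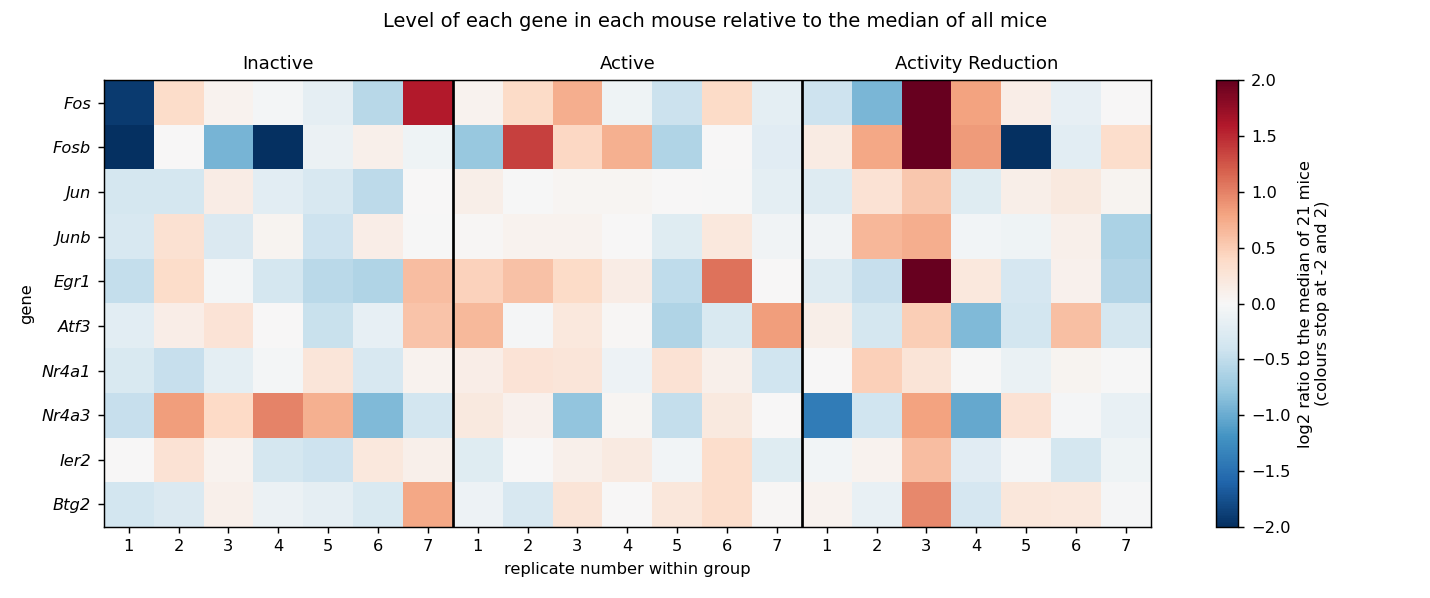
Log2 ratio of each gene (rows, normalized count + 1) in each mouse (columns, by group and replicate number) to the median of the 21 mice, with colours ending at -2 and 2. The column of Activity Reduction replicate 3 is red throughout, and no other mouse shows that.

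Inactive replicate 7 was next for Fos, at 295 normalized counts, and for Btg2, at 1114. Its Egr1 count of 225 was at rank 3, and 0 of 10 members were highest in this mouse, against 5.34% of all genes. Fosb in this mouse was 11.6 and Junb 318.4, near the medians of all mice. Leaving it out moved the median log2 fold change of the members against Inactive from 0.22 to 0.32 for Activity Reduction and from 0.11 to 0.26 for Active, with 0 members called.

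**Figure D4:**
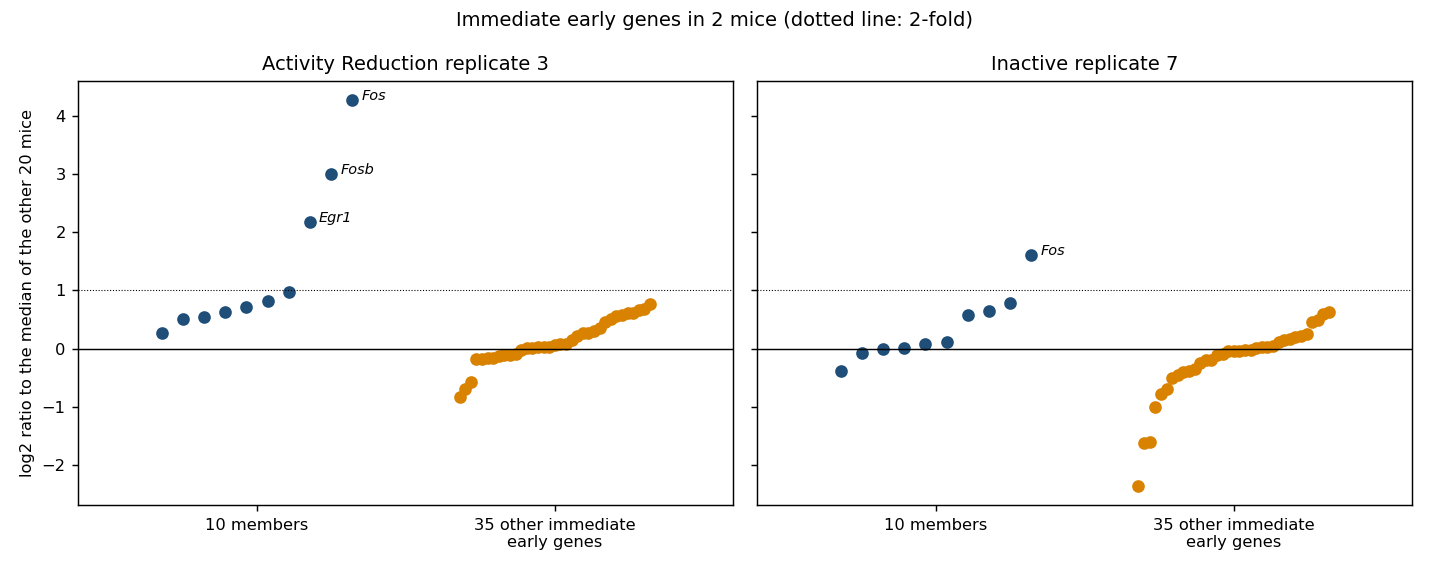
Log2 ratio (normalized count + 1) to the median of the other 20 mice for the 10 members and 35 other immediate early genes in Activity Reduction replicate 3 (left) and Inactive replicate 7 (right), each point 1 gene in rising order. Only Fos, Fosb and Egr1 lie above the 2-fold line on the left, and only Fos on the right.

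The spread between mice of the same group differed widely among the members. The pooled within-group SD of log2(normalized count + 1) was 1.19 for Fos and 1.16 for Fosb, at the 96.7th and 96.4th percentile of all genes tested, whose median was 0.19. Egr1 at 0.67 and Nr4a3 at 0.64 lay at the 87.7th and 86.5th percentile. The spread of Jun was 0.22 and that of Nr4a1 0.24, at the 54.3th and 57.0th percentile. On the scale of log2(TMM-scaled CPM + 1) the SDs of Fos, Fosb, Egr1 and Nr4a3 were 0.94, 0.32, 0.55 and 0.56, at the 99.4th, 94.3th, 97.8th and 97.8th percentile, and Jun and Nr4a1 lay at the 84.2th and 87.8th percentile, so the percentiles depended on the scale. Without Activity Reduction replicate 3 the SD of Fos was 0.74 and that of Egr1 0.44, while Nr4a3 kept 0.60. From lowest to highest mouse Fos covered 75.0-fold, and 11.8-fold without that mouse, whereas Jun covered 2.09-fold.

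Fos and Egr1 varied together from mouse to mouse. After the group means were removed, Pearson's r over the 21 mice was 0.875 (permutation p = 3e-05, adjusted over 45 pairs 0.00135) and Spearman's rank correlation was 0.805 (permutation p = 4e-05, adjusted 0.0018). It was 0.678 without Activity Reduction replicate 3 and 0.632 without the 2 mice farthest from the median of Fos, which were that mouse and Inactive replicate 7 (0.571 with group means recomputed without them). It was 0.934 in the 13 libraries with fewer liver transcripts and 0.769 in the 8 with more. This was the only pair of the 45 with an adjusted permutation p-value under 0.05. Over the 45 pairs the median r was 0.388 and 43 were positive, but without Activity Reduction replicate 3 the median was 0.161 and 33 were positive. Fos and Btg2 had r = 0.716 (permutation p = 0.0067, adjusted 0.106) and 0.223 without the 2 farthest mice (0.125 with recomputed group means). Fos and Fosb had r = 0.623 (permutation p = 0.0294, adjusted 0.151) and 0.340 without them (0.292 with recomputed group means). The lowest r was -0.189, between Atf3 and Nr4a1.

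**Figure D5:**
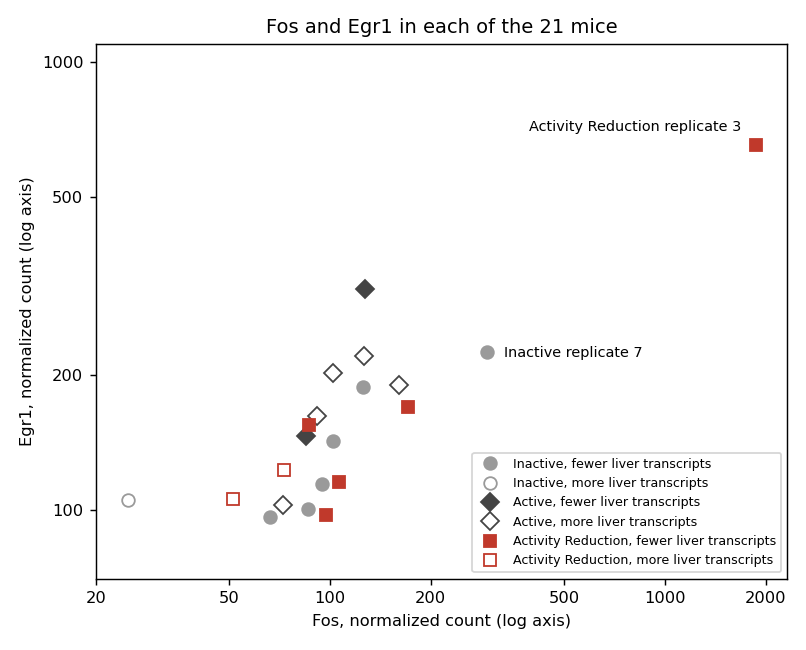
Normalized counts of Fos and Egr1 (log axes) in each of the 21 mice, with groups by symbol and open symbols for libraries with more liver transcripts. Mice with more Fos tended to have more Egr1, and Activity Reduction replicate 3 lies far from the rest at 1873 and 654.

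The genes whose variation was most like the mean of the scaled members were Epn2 (r = 0.802), an endocytic adaptor, Afap1 (r = 0.768), an actin filament protein, Rbm24 (r = 0.733), a splicing factor of muscle, Otud1 (r = 0.724), a deubiquitinase, and Arhgap26 (r = 0.711). The next 10 were Arih2, Cep170, Arntl, Ephx3, Repin1, Mitd1, Spg20, Clip1, Gsk3b and Eif3a, with r from 0.668 to 0.707. These values are a description over 21 mice, and 1 of the 15 genes was again among the first 15 without Activity Reduction replicate 3. None of the 35 other immediate early genes was among them. Their median r was 0.0256, and 19 of 35 were positive. Dusp1, which encodes a phosphatase of MAP kinases, had the highest at 0.622, followed by Ier5 at 0.567 and Nr4a2, the remaining NR4A receptor, at 0.489.

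Of the wider list of 35 immediate early genes, 0 were called in any comparison. Between the Active and Inactive groups 30 of 35 log2 fold changes were positive, with a median of 0.15, and 5 were higher at an unadjusted p-value under 0.05, where 6.18% of all genes were. With the liver division as a covariate the median was 0.14, and 1 of the 35 differed at that level. Of 8 markers each of other cell types, 8 of fibro-adipogenic progenitors, 6 of endothelium and 7 of macrophages had positive log2 fold changes (medians 0.25, 0.13 and 0.29), as had 24 of 24 liver markers, and 0 of these markers were called. Summed markers of fibro-adipogenic progenitors ranged from 371 to 649 CPM in Inactive and from 505 to 843 CPM in Active mice, and their part in the result was not tested. The smallest p-values belonged to Plk3, a stress-induced kinase (log2 fold change 0.81, adjusted p = 0.283), Jund, a steady Jun family member (0.36, adjusted p = 0.331), and Ccn2, a matricellular growth factor (0.49, adjusted p = 0.336). Between the Activity Reduction and Inactive groups 24 were positive, with a median of 0.08, and 4 were higher at that level, led by Jund (0.41, adjusted p = 0.411), Ier5 (0.38) and Dusp1 (0.31). Between the Activity Reduction and Active groups 12 were positive, with a median of -0.18. There 2 were higher and 2 lower, with log2 fold changes of 0.12 for Mcl1, an antiapoptotic gene, 0.30 for Dusp1 and -0.94 for Apold1, an endothelial gene (adjusted p = 0.257, 0.333 and 0.366). In this comparison 8 of 8 markers of fibro-adipogenic progenitors, 7 of 8 of endothelium, 7 of 8 of macrophages and 24 of 24 of liver had negative log2 fold changes (medians -0.38, -0.14, -0.34 and -0.92). The part of these cells and of liver transcripts in the values of the wider list was not tested. With the liver division as a covariate the median of the wider list was -0.06 here, and 1 gene differed at the unadjusted level. In Activity Reduction against Inactive the median was then 0.07, and 5 genes differed at that level. For the fit with this covariate, the share of all genes at that level was not computed. Jund, like Jun, had a positive log2 fold change against Inactive in both trained groups, and neither gene passed adjustment.

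Of 25 upstream kinases and transcription factors, 0 were called, and the median log2 fold change was 0.02, 0.00 and -0.00 for Active against Inactive, Activity Reduction against Inactive and Activity Reduction against Active. Rps6ka1, which encodes the kinase RSK1, had the smallest p-value, with -0.40 in Activity Reduction against Inactive (adjusted p = 0.331) and -0.25 against Active (adjusted p = 0.338). Mef2d differed by 0.12 (adjusted p = 0.495) and Mef2a by -0.09 (adjusted p = 0.64) in Activity Reduction against Inactive, and Elk1, a cofactor of serum response factor, by -0.15 against Active (adjusted p = 0.332). Among 14 tested dimer partners and factors of messenger RNA decay, Jund alone had an unadjusted p-value under 0.05. Cebpb, a leucine zipper factor of inflammation, had a log2 fold change of 0.72 in Activity Reduction against Inactive (adjusted p = 0.672).

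Of 13 genes that respond to glucocorticoids, 0 were called. Sesn1 was at -0.24 in Active and -0.28 in Activity Reduction against Inactive (adjusted p = 0.412 and 0.495), and Klf9 at 0.18 in Activity Reduction against Inactive and 0.16 against Active (adjusted p = 0.495 and 0.322). Of 13 tested genes known to respond in the hours after a bout of exercise, most of them by a rise and Mstn by a fall, 0 were called. Csrp3, a sarcomeric stretch sensor, was at 0.52 in Activity Reduction against Inactive (adjusted p = 0.552). Ppargc1a, the coactivator of mitochondrial biogenesis, was at 0.14 there and at 0.15 against Active (adjusted p = 0.644 and 0.341).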

How the data were processed

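RNA from the medial gastrocnemius of 21 female mice was sequenced in paired ends. Reads were trimmed (fastp), aligned to GRCm39 (STAR) and assigned to genes (featureCounts) by the authors, and the deposited values are raw counts per gene. Versions, annotation and strand setting are not given in the sources used here. Of counts from 1 to 10, 69.4% were even, and whether reads or pairs were counted is not given. The deposited file that was titled normalized held identical numbers and was left out. Groups came from the labels.

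Counts were tested in edgeR 4.0.16 (R 4.3.3, TMM, filterByExpr, quasi-likelihood) over all 21 libraries. Normalized counts are counts divided by size factors of DESeq2 1.42.0. Levels were tested singly by exact permutation of log2(normalized count + 1), and scripts were tested on simulated data. Libraries were divided by liver transcripts at the largest gap between neighbours (1.09 on the log2 scale). Replicate numbers did not pair the samples. All members are named. Genes of other lists are named if called or among the 3 smallest p-values of a comparison, as are the 15 genes most like the members. Members and lists were chosen with earlier results of these data known.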

Additional observations from a re-analysis of the deposited data

Results flagged for a closer look

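Of 30 sets of 7 values (10 genes in 3 groups), 8 had a highest or lowest mouse that stood apart from the rest of its group by Dixon's criterion. Chance meets it in about 1 of 20 groups if values are normally distributed. It was applied to unlogged normalized counts, for which that rate need not hold, and the share over all genes was not computed. In 5 of the 8 the mouse was Activity Reduction replicate 3, with 1873 normalized counts of Fos (next 171), 103 of Fosb (next 23.1), 654 of Egr1 (next 170), 268 of Ier2 (next 183) and 1270 of Btg2 (next 762). The 5 values come from 1 library, which was already known to stand out, and are not independent. In Inactive replicate 7, Fos at 295 (next 125) and Btg2 at 1114 (next 701) stood apart. In the Active group, Jun in replicate 7 was lowest at 3794 (next 4312), still above the Inactive median.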

How the results depend on the processing

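In the settings tried, 0 members were called in each comparison, and 0 in the test of any difference between the 3 groups, which the fits of only 2 groups did not give. DESeq2 gave no adjusted p-value for Fosb, nor for Fos, Egr1, Atf3 and Ier2 in Activity Reduction against Inactive, so these could not be called there. DESeq2 called 52, 21 and 113 of all genes where edgeR called 0, 2 and 0. With 1 library left out at a time, the median log2 fold change of the members ranged from 0.0645 to 0.26 (Active against Inactive), from -0.0521 to 0.317 (Activity Reduction against Inactive) and from -0.12 to 0.15 (Activity Reduction against Active), and both negative ends came without Activity Reduction replicate 3. Settings chosen after seeing the data were the exact tests without that library or among the 13 libraries low in liver transcripts, the spread and correlations without it, and the fit without it and Inactive replicate 7. The number of exact permutation tests under 0.05 was 2, 1 on unlogged counts and 0 within the 13 libraries, where fewer mice remained. The median r of pairs fell to 0.161 without Activity Reduction replicate 3.

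Of the single-gene values, 57 changed direction and 873 did not, and none was past the threshold. Active against Inactive, with liver as a covariate, gave 1.08 for Fos and 0.0044 for Nr4a3, the 13 libraries gave -0.0215 for Nr4a1, and the fit without 2 libraries gave 0.40 for Fos. Activity Reduction against Inactive gave -0.22 for Fos with DESeq2, which replaced 1 count, and -0.10 for Ier2 without 2 libraries. Activity Reduction against Active gave -0.16 for Fos with DESeq2, -0.23 for Egr1 and -0.0072 for Btg2 with the covariate, -0.0024 for Junb in the 13 libraries, and -0.0009 for Nr4a1 with no filter or -0.0032 with only the 2 groups. Without 2 libraries it gave -0.172 for Fos, -0.0884 for Fosb, -0.586 for Egr1, -0.03 for Nr4a1 and -0.0699 for Btg2. Except for DESeq2, the cause was not tested.

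Leaving out 1 library, Active against Inactive ranged from -0.23 to 0.40 for Fos, -0.0033 to 0.247 for Atf3 and -0.038 to 0.0785 for Ier2. Activity Reduction against Inactive ranged from -0.22 to 2.08 for Fos, -0.13 to 0.70 for Egr1, -0.22 to 0.023 for Atf3 and -0.117 to 0.0646 for Ier2. Activity Reduction against Active ranged from -0.17 to 1.88 for Fos, -0.0885 to 1.12 for Fosb, -0.59 to 0.25 for Egr1, -0.0703 to 0.0398 for Nr4a1, -0.278 to 0.0876 for Nr4a3, -0.142 to 0.0552 for Ier2 and -0.0699 to 0.183 for Btg2.

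Same-numbered samples did not deviate together (21 pairs, correlations from -0.23 to 0.44, 7 above 0.1), and 3 of the correlations were the best for their sample. With the replicate block, 0 members were called, the medians were 0.11, 0.21 and 0.05, Fos in Active against Inactive was 0.0651 and Egr1 in Activity Reduction against Active was -0.136. Counting error limits Fosb most, at 2 to 113 counts per library.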

Other observations

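Among the 15 genes that stood highest in Activity Reduction replicate 3 relative to the median of the other mice, Mmp13 (matrix metalloproteinase), Trem2, Spp1 (osteopontin) and Gpnmb, which are known from phagocytes and tissue repair, were also high elsewhere. Their counts in that mouse were 52.9, 85.7, 1299 and 1246 normalized counts. In Inactive replicate 2 they were 37.7, 71.3, 1377 and 1223. Fos in Inactive replicate 2 was 125 and Egr1 188, above the Inactive medians of 94.6 and 114. Of the same 15 genes, Gfap, Slc7a11, Atp6v0d2 and Elavl3 had their highest count among the other mice in Active replicate 7. Fos there was 85.0 and Egr1 146, below the Active medians of 102 and 190. Ptprn2 and Nptx1 had theirs in Inactive replicate 5, where Fos at 86.1 and Egr1 at 100 lay below the Inactive medians. All of these genes were named after their values were seen, and their relation to Fos and Egr1 was not tested.

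In Inactive replicate 7, the mouse with the next highest Fos, glucocorticoid-responsive Fkbp5 lay 2.02 above the median of the other mice on the log2(normalized count + 1) scale, Mt2 1.17 and Ddit4 1.01. These were the largest values of the 13 glucocorticoid-responsive genes tested, and this mouse was at rank 2, 2 and 4 for them. Of the 13, 11 lay above that median in this mouse, all but Sgk1 (-0.42) and Zbtb16 (-0.07), and 4 in Activity Reduction replicate 3. In the latter mouse Fkbp5, Mt2, Ddit4 and Zbtb16 lay at 0.77, -0.26, -0.49 and 0.78. Apold1 lay at -2.37 in Inactive replicate 7, with 26.7 normalized counts. These genes were also named after their values were seen. The share of all genes above the median in these mice was not computed, and the relation of these values to Fos was not tested.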
